A study of Mus musculus with 2 samples.

Results

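The synaptic vesicle and presynaptic release machinery was represented by 41 named genes, found by symbol among the 45578 genes of a ribosome footprint table. The list was set by gene name, with earlier results of these data known, and all 41 genes were present with a single gene identifier each. Footprints were counted in polysomes from the whole brain of 2 mice at postnatal day 5 (P5). Both animals were controls of the Taiwanese mouse line used for spinal muscular atrophy, with the genotype Smn+/-; SMN2tg/0. Each was therefore heterozygous for a disrupted Smn gene and carried the human SMN2 transgene, on an FVB background. They formed 1 group of biological replicates (n = 2), with no animal of another genotype, age or treatment analysed here. Lysate of the pulverised brain was separated on a sucrose gradient, pooled polysomes were digested with RNase I, and fragments of 25 to 35 nucleotides were sequenced.

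A synaptic vesicle is filled with transmitter, docks at the active zone, is primed and fuses with the plasma membrane when calcium enters the nerve terminal. Fusion is driven by SNARE proteins of the vesicle and the target membrane, which zip into a bundle. Synaptotagmins sense calcium, complexins hold the bundle ready, and the ATPase NSF with its SNAP adaptors takes the bundle apart afterwards. Large scaffolds such as Bassoon, Piccolo, RIM, ERC and Munc13 organise the release site, and dynamin, amphiphysin, endophilin and synaptojanin retrieve vesicle membrane by endocytosis. In rodents most forebrain synapses form in the first postnatal weeks, so the P5 brain is still building these terminals.

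The libraries held 1866831 footprints for replicate 1 and 5261878 for replicate 2, so replicate 2 gives the more precise values. Of 10 neuronal marker genes, all were present, with 0.634% of the footprints in replicate 1 and 0.497% in replicate 2. Markers of astrocytes and radial glia (8 genes) took 0.475% and 0.393%, those of the oligodendrocyte lineage (9 genes) 0.112% and 0.134%, and those of microglia (6 genes) 0.0234% and 0.0229%. Pituitary markers took 0.00134% and 0.000304%, with Prl and Tshb at 0 footprints. Photoreceptor markers, whose cells also hold release machinery, took 0.000161% and 0.000399%, with Pde6b at 0. In whole tissue, fewer neurons and fewer footprints per neuron cannot be told apart.

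Together the 41 presynaptic genes took 1.05% ± 0.0553 of all footprints (SD, n = 2). Replicate 1 gave 1.09%, with an exact 95% interval of 1.08 to 1.11. Replicate 2 gave 1.02%, with an interval of 1.01 to 1.02, so the libraries differed beyond counting error. Each animal gave 1 library, so a difference between animals and a difference between library preparations cannot be told apart. The gene with the fewest footprints, Unc13b, had 37 in replicate 1, and the gene with the most, Dnm1, had 4676 in replicate 2. A long coding sequence holds more ribosomes than a short one, so genes were compared by density, the CPM of the gene (its share of the library's footprints, in parts per 1000000) per kilobase of coding sequence. The speed of the ribosomes was not measured, so density is ribosome load per length and not a rate of synthesis. For each gene the value of replicate 1 is given first and that of replicate 2 next.

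The median density of the 41 genes was 175 in replicate 1 and 149 in replicate 2. Over the 13317 coding genes that averaged 10 or more footprints, the median was 22.4 in replicate 1 and 25.1 in replicate 2. All 41 genes passed this minimum. Of them 37 (90.2%) lay above the median density of all coding genes, and 21 (51.2%) lay in the densest 10% of coding genes. The 4 below the median were Pclo, Bsn, Rims2 and Unc13b, all active zone proteins with long coding sequences. The order of the genes was close to the same in both libraries, with a Spearman rho of 0.986 across the 41 genes as a description.

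**Figure D1:**
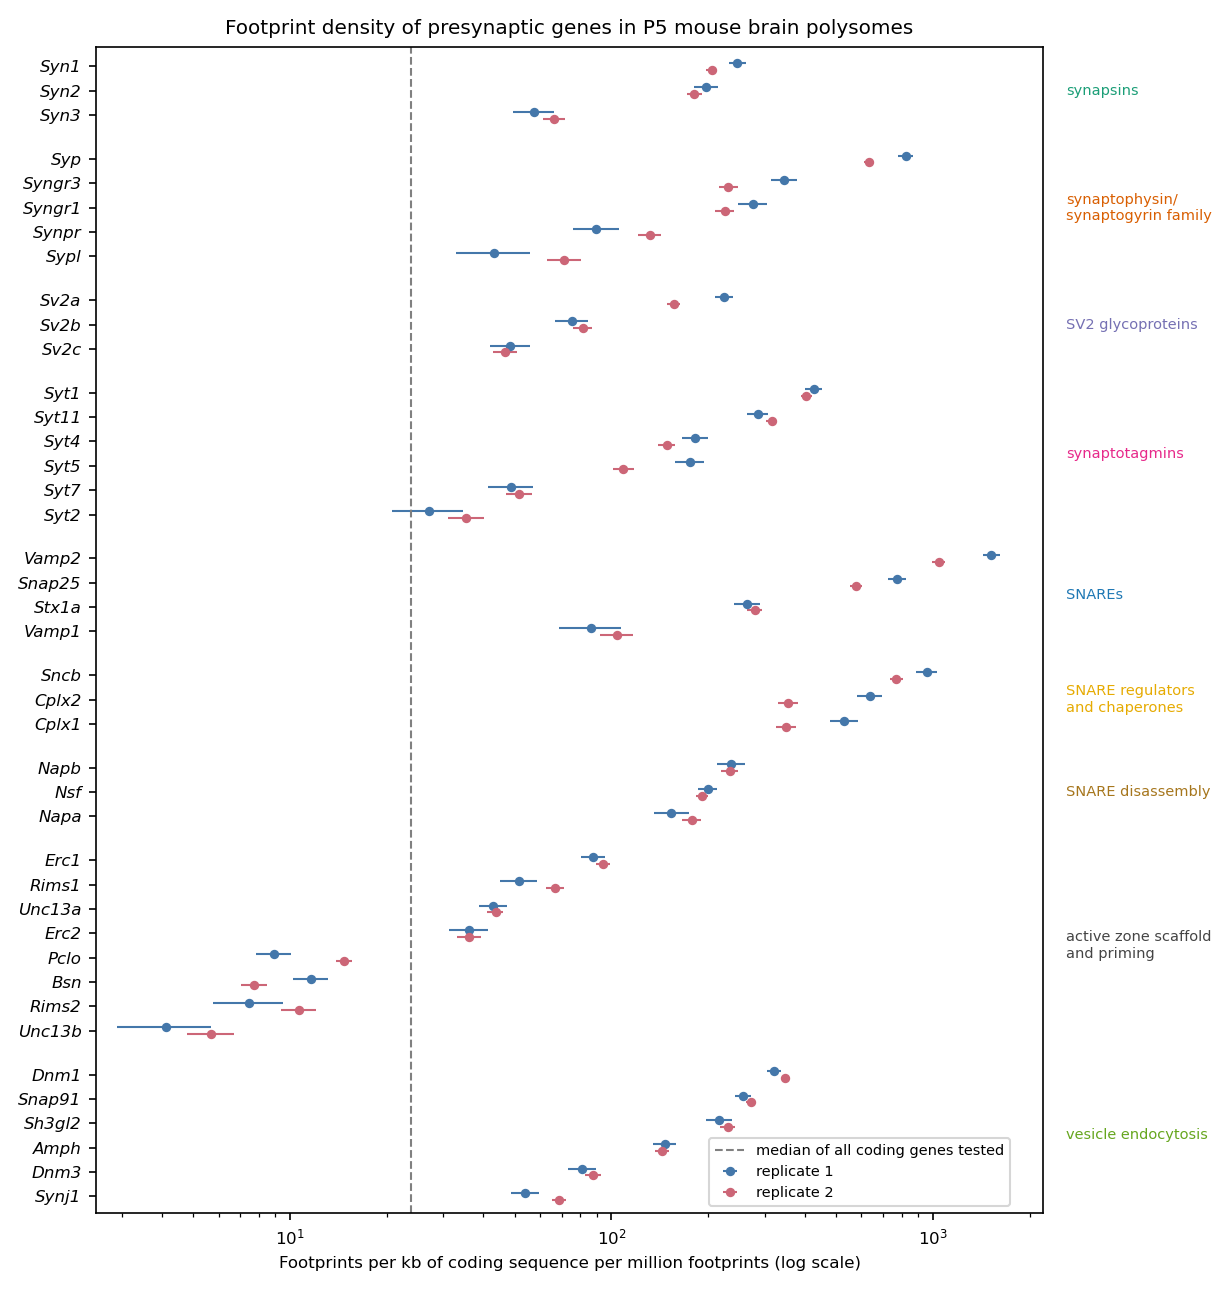
Footprint density of each of the 41 genes in replicate 1 (blue) and replicate 2 (red), grouped by role, on a log scale. Bars are exact Poisson 95% intervals, which cover counting error only, and the dashed line is the mean-density median of 23.9 over 13317 coding genes. Vamp2 is at the right edge at 1522 and 1043, and Pclo, Bsn, Rims2 and Unc13b are the only genes left of the line in both replicates.

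Among the SNAREs, Vamp2 was the densest of all 41 genes. Vamp2 encodes synaptobrevin 2, the vesicle SNARE of most forebrain terminals, and had a density of 1522 in replicate 1 and 1043 in replicate 2. Both values exceed those of every other gene on the list, and the mean of 1282 ± 338 (SD, n = 2) placed Vamp2 at rank 29 of 13317 coding genes. Its paralogue Vamp1, the vesicle SNARE prominent in hindbrain and spinal neurons, had densities of 86.2 and 104. Vamp2 was thus denser than Vamp1 by 17.7-fold in replicate 1 (95% interval 14.1 to 22.4) and 10.05-fold in replicate 2 (8.86 to 11.4). The mean ratio of 13.3 became 5.75 per whole transcript and 7.36 with transcripts annotated as protein coding alone.

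The target-membrane SNAREs were less dense than Vamp2. Snap25, which supplies a pair of helices to the fusion bundle, had densities of 775 and 577 (mean 676 ± 140). Stx1a, the syntaxin that supplies the remaining helix, had densities of 264 and 279. Snap25 exceeded Stx1a by 2.93-fold in replicate 1 (95% interval 2.61 to 3.30) and 2.07-fold in replicate 2 (1.93 to 2.22), and the library values of the genes did not overlap. The mean ratio of 2.46 became 5.51 with protein coding transcripts alone and 4.48 with the highest transcript alone. Snap25 reached 0.510 (0.465 to 0.558) and 0.553 (0.519 to 0.590) of the Vamp2 density. That ratio rests on what is counted for Vamp2: with protein coding transcripts alone its mean was 0.848, and per length of the whole transcript it was 0.979.

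The small soluble regulators were dense as a group. Sncb, which encodes beta-synuclein, a small protein of nerve terminals, had densities of 958 and 771 (mean 865 ± 132), the next highest after Vamp2. Cplx2 had 638 and 356 (497 ± 199), and Cplx1 had 529 and 349 (439 ± 127). The complexins clamp and activate the SNARE bundle, and Cplx1 and Cplx2 have coding sequences of the same length, 405 nucleotides. Their ratio, Cplx2 over Cplx1, was 1.21 in replicate 1 (1.05 to 1.38) and 1.02 in replicate 2 (0.920 to 1.13). The interval in replicate 2 includes 1, so an order of these complexins was not detectable in both libraries. Alternatives gave an order in both libraries but in opposite directions, with a mean ratio of 0.492 per whole transcript and 1.76 with the highest transcript alone.

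The disassembly genes lay close together and differed little between the libraries. Nsf, the ATPase that separates spent SNARE bundles, had densities of 199 and 191. Napb, the brain form of the SNAP adaptor, had 235 and 234, and the widely expressed form Napa had 154 and 178. Napa was lower than Napb in both libraries, at ratios of 0.654 (0.556 to 0.767) and 0.761 (0.695 to 0.833). Per length of the whole transcript the ratio turned to 1.13 and 1.32 (mean 1.22), with an interval that includes 1 in replicate 1. The leading transcript of Napb has 4412 nucleotides and that of Napa has 2517.

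Proteins that span the vesicle membrane covered a wide range. Syp encodes synaptophysin, among the most abundant vesicle proteins, and had densities of 824 and 632 (mean 728 ± 135). Its relatives Synpr (synaptoporin) and Sypl (a synaptophysin-like protein found in many tissues) had 89.9 and 132, and 43.2 and 71.4. Syp exceeded Synpr by 9.16-fold in replicate 1 (7.71 to 10.9) and 4.81-fold in replicate 2 (4.40 to 5.26), so the direction was shared but the size was not. Sypl stood furthest from Syp, at 19.1-fold (14.7 to 25.2) and 8.86-fold (7.83 to 10.1). The synaptogyrins, vesicle membrane proteins with the same layout as synaptophysin, were nearer to each other. Syngr3 had densities of 345 and 231, and Syngr1 had 276 and 225. The ratio of Syngr1 to Syngr3 was 0.798 (0.693 to 0.919) in replicate 1 and 0.974 (0.884 to 1.07) in replicate 2, where the interval includes 1. Per whole transcript and with the highest transcript alone Syngr1 was lower in both libraries, at mean ratios of 0.424 and 0.537. With protein coding transcripts alone the ratio turned to 1.02 and 1.29 (mean 1.14), without an order called in both libraries.

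The SV2 glycoproteins are transporter-like vesicle proteins, and SV2A is the binding site of the antiepileptic drug levetiracetam. Sv2a was densest, at 225 and 156, followed by Sv2b at 75.4 and 81.4 and Sv2c at 48.6 and 46.6. The library values of these genes did not overlap. Sv2a exceeded Sv2b by 2.98-fold (2.61 to 3.41) in replicate 1 and 1.92-fold (1.77 to 2.09) in replicate 2. It exceeded Sv2c by 4.63-fold (3.97 to 5.42) and 3.35-fold (3.04 to 3.70). The lead of Sv2a was larger with the highest transcript alone, at mean ratios of 3.72 to Sv2b and 6.48 to Sv2c. Per whole transcript the mean ratio to Sv2c was 8.44. With protein coding transcripts alone the lead was smaller, at 1.95 to Sv2b and 3.60 to Sv2c, against 2.39 and 3.94 in the main setting.

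Synapsins coat the vesicle and tether it in the reserve pool. Syn1 had densities of 247 and 205, Syn2 had 197 and 181, and Syn3, the family member linked to early neuronal development, had 57.6 and 66.4. Syn3 was the lowest in both libraries, below Syn1 by 4.29-fold (3.66 to 5.04) and 3.09-fold (2.83 to 3.39). Syn1 exceeded Syn2 by 1.25-fold (1.13 to 1.40) and 1.13-fold (1.06 to 1.21). The mean ratio of Syn1 to Syn2 was 2.11 per whole transcript, and that of Syn1 to Syn3 was 7.63 with protein coding transcripts alone.

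Synaptotagmins were represented by 6 genes. Syt1, the fast calcium sensor of forebrain terminals, was densest at 426 and 405. Syt11, a synaptotagmin that is not thought to bind calcium, followed at 285 and 315, within 1.49-fold (1.35 to 1.65) and 1.28-fold (1.21 to 1.36) of Syt1. Syt4 had 182 and 149, and Syt5 had 175 and 109, so the replicate ranges of these genes overlapped. Syt7, the slow sensor of asynchronous release, had 48.7 and 51.7. Syt2, the fast sensor of hindbrain and spinal synapses, was the lowest at 27.0 and 35.3. Syt1 exceeded Syt2 by 15.8-fold in replicate 1 (12.2 to 20.6) and 11.4-fold in replicate 2 (10.02 to 13.1). The lead of Syt1 over Syt5 depended on the length used, with a mean ratio of 1.21 per whole transcript against 3.002 per coding length. With the highest transcript alone Syt4 was above Syt1 on the mean (322 against 294), and neither the ratio to Syt4 (0.913) nor that to Syt5 (1.09) excluded 1 in the same direction in both libraries.

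Active zone scaffolds and priming factors were the least dense group, with a median of 23.9 in replicate 1 and 25.4 in replicate 2. Erc1, a scaffold found in many tissues, led at 87.6 and 94.2, and its brain relative Erc2 had 36.1 in both. Rims1 encodes RIM1, which ties vesicles to calcium channels, and had 51.5 and 66.8. Its leading transcript has a coding sequence of 2411 nucleotides and no annotated UTR, and with the longest coding sequence of 4275 nucleotides its mean density was 33.4 in place of 59.2. Rims2 had 7.46 and 10.7 (mean 9.07 ± 2.27), so Rims1 exceeded it by 6.91-fold (5.22 to 9.26) and 6.26-fold (5.44 to 7.23), or by a mean of 3.81-fold with the longest coding lengths and 2.47-fold with the highest transcript alone.

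Munc13 proteins open syntaxin for SNARE assembly. Unc13a had densities of 42.9 and 43.6, and Unc13b had 4.12 and 5.69 (mean 4.91 ± 1.11), the lowest of the 41 genes. Unc13a exceeded Unc13b by 10.4-fold in replicate 1 (7.43 to 15.0) and 7.67-fold in replicate 2 (6.45 to 9.18), or by a mean of 16.2-fold with the highest transcript alone. The giant scaffolds Bsn (Bassoon, 11829 nucleotides of coding sequence) and Pclo (Piccolo, 15207 nucleotides) were low and changed places. Bsn had 11.6 and 7.74 (mean 9.69 ± 2.75), while Pclo had 8.91 and 14.8 (11.8 ± 4.14). Bsn exceeded Pclo in replicate 1 (ratio 1.31, 1.09 to 1.56) and lay below it in replicate 2 (ratio 0.524, 0.471 to 0.583). The libraries thus gave opposite orders. With the highest transcript alone Bsn exceeded Pclo in both, at a mean ratio of 2.497. There the Pclo count is that of a retained intron form (70 and 378 footprints), divided by the coding length of another transcript. That ratio therefore gives no order of the coding forms.

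Endocytosis genes spanned a range from Dnm1 to Synj1. Dnm1, the dynamin that pinches off vesicles in neurons, had densities of 322 and 348 and the most footprints of all 41 genes, 1535 and 4676. Dnm3 had 81.2 and 87.5, so Dnm1 was denser by 3.96-fold (3.54 to 4.44) and 3.97-fold (3.73 to 4.24). The mean ratio was 9.03 per whole transcript and 1.34 with the highest transcript alone, where Dnm1 is divided over 17 transcripts. The clathrin adaptor AP180, encoded by Snap91, had 257 and 271, and endophilin A1, encoded by Sh3gl2, had 216 and 230. Amph (amphiphysin) had 147 and 144. Synj1 encodes synaptojanin, the lipid phosphatase that strips the clathrin coat, and was the lowest of the group at 53.8 and 68.7.

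**Figure D2:**
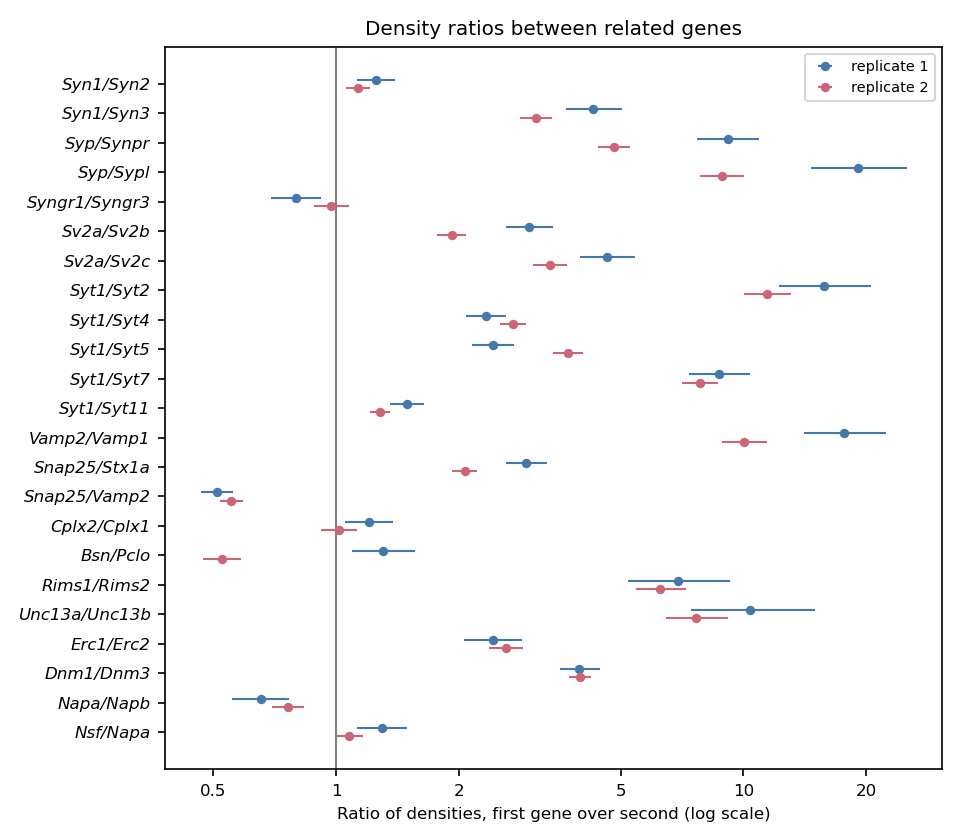
Ratio of densities, first gene over second, for 23 fixed pairs in replicate 1 (blue) and replicate 2 (red) on a log scale, with 95% intervals that cover counting error only. In 19 of 23 pairs both intervals lie on the same side of 1, Bsn/Pclo lies on opposite sides, and Cplx2/Cplx1, Syngr1/Syngr3 and Nsf/Napa include 1 in replicate 2.

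In 19 of the 23 pairs compared, both libraries gave the same direction with intervals that exclude 1. With transcripts annotated as protein coding alone there were also 19, but Erc1/Erc2 was lost, at a mean ratio of 1.20 in place of 2.51, and Nsf/Napa was gained at 1.88. With the highest transcript alone Erc1/Erc2 turned to 0.329, where Erc2 has 1 annotated transcript. There the Erc1 count is that of a nonsense-mediated decay form (74 and 212 footprints), divided by the coding length of another transcript. That ratio therefore gives no order of the coding forms. Intervals here cover counting error only, and PCR copies are not independent molecules. Ranked by mean density, the 41 genes gave 40 neighbouring pairs, of which 26 had overlapping replicate ranges, so most single steps in the order are not resolved with 2 animals.

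The groups contributed differently to ribosome load and to density. Vesicle endocytosis, with 6 genes, held 22.6% of the members' footprints in replicate 1 and 26.2% in replicate 2, but 10.5% and 13.4% of the summed density. The 4 SNAREs held 11.8% and 10.04% of the footprints, yet 25.8% and 23.3% of the summed density. Small regulators and chaperones likewise took 7.84% and 5.86% of the footprints and 20.7% and 17.2% of the density. The 8 active zone genes ran the other way, with 9.85% and 11.9% of the footprints and 2.44% and 3.25% of the density. Density is the same count divided by coding length, so the gap between the measures reflects coding length by construction.

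**Figure D3:**
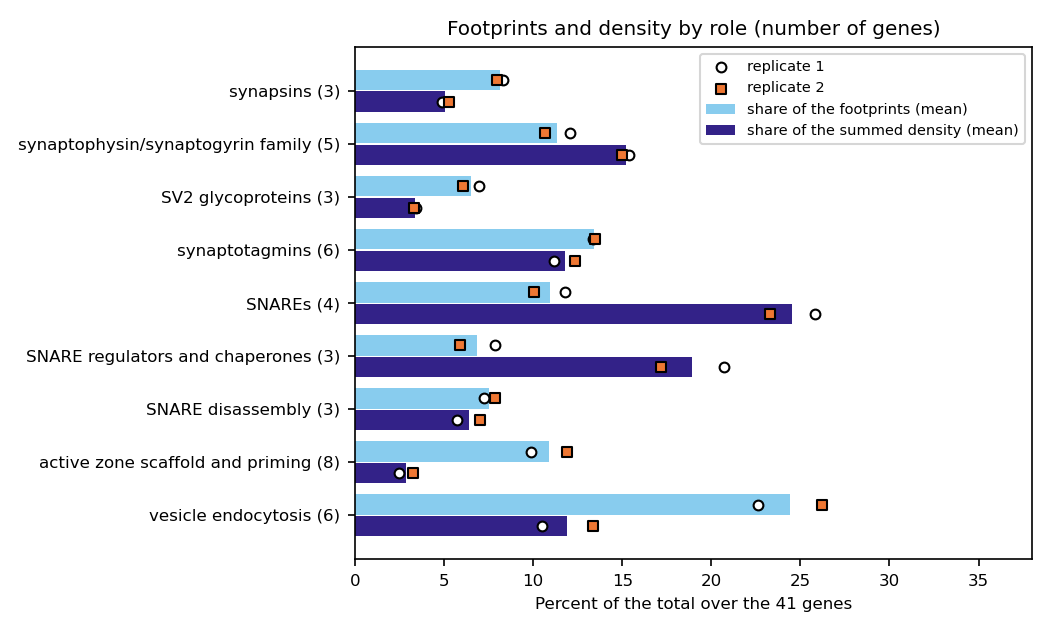
Share of the 41 genes' footprints (light bars) and of their summed density (dark bars) by role, as the mean of the replicates in percent, with circles for replicate 1 and squares for replicate 2. SNAREs rise from 11.8% and 10.04% of footprints to 25.8% and 23.3% of density, and active zone genes fall from 9.85% and 11.9% to 2.44% and 3.25%.

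Density fell with coding length across the list. Spearman's rho between coding length and density was -0.669 in replicate 1 and -0.675 in replicate 2 over the 41 genes, as a description. Over all 13317 coding genes it was -0.448 and -0.450. Coding length is the denominator of density, so some negative relation is built in. Footprint counts themselves had almost no relation to coding length among the 41, at rho -0.135 and 0.0195. The 14 genes with a coding sequence under 1000 nucleotides had a median density of 280.01, against 53.2 for all coding genes of that length. The 8 genes over 3000 nucleotides had a median of 23.99, against 9.83 for all coding genes over that length.

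**Figure D4:**
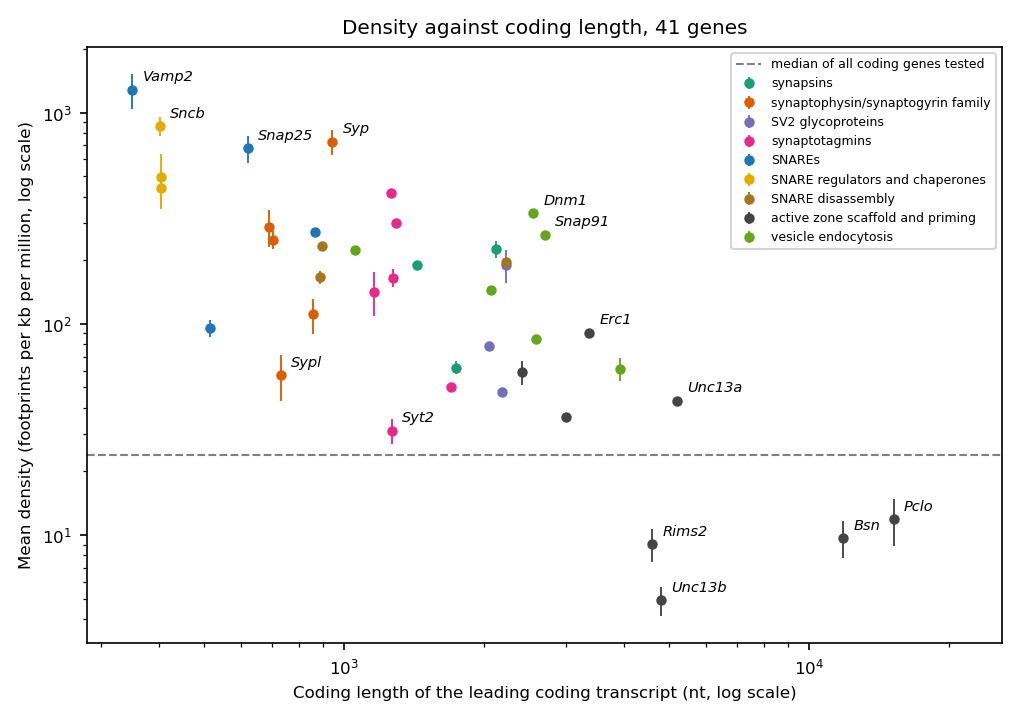
Mean density of the 41 genes against the coding length of the leading coding transcript, both on log scales, coloured by role. Vertical bars span the replicate values, and the dashed line is the median of 23.9 over all coding genes tested. Vamp2 at 351 nucleotides is highest, and Rims2, Unc13b, Bsn and Pclo, all over 3000 nucleotides, lie under the line.

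Footprints were spread over 218 annotated transcripts of the 41 genes. The leading coding transcript held a median of 41.3% of a gene's footprints in replicate 1 and 38.2% in replicate 2, against 50.0% and 47.9% over all coding genes. Transcripts outside the protein coding class (retained introns, nonsense-mediated decay targets and other processed forms) held a median of 14.6% and 14.2%, against 7.69% and 9.41% over all coding genes. Because such transcripts share exons with coding ones, these shares cannot be read as translation of those forms. In 16 of the 41 genes the share was 0.

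The share outside the coding class was above 40% in both libraries for 8 genes. It was highest for Napa, at 63.1% and 65.7%, followed by Stx1a at 62.4% and 59.8%. Vamp2 had 47.7% and 43.2%, and Syp had 43.8% and 48.7%. Cplx2, Syt4, Syt5 and Erc2 had a single annotated transcript, so their counts need no such division. Dnm1 was the most divided gene: its 17 transcripts included 9 that each held 7.82% to 11.1% of its footprints in replicate 1. For Snap25, the pair of coding transcripts with equal coding length of 621 nucleotides held 45.2% and 40.3% in replicate 1 and 48.1% and 40.3% in replicate 2. The coding forms of Syt7 have 1704, 1344 and 1212 nucleotides. They held 41.9%, 27.1% and 31.0% in replicate 1 and 41.2%, 31.7% and 27.2% in replicate 2. Coding forms of a gene can also share exons, and the assignment of shared fragments is not given. These shares therefore cannot be read as the use of each form.

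Differences between the libraries were then compared gene by gene. Levels here are in CPM, and the log2 ratio is replicate 2 over replicate 1 after TMM (trimmed mean of M values) scaling. A two-sided exact binomial test was used, adjusted over 16427 genes. It compares 2 libraries and covers counting error only, since 1 animal per side gives no replicate check. Of the 41 genes, 16 were lower in replicate 2 and 4 were higher, 20 in all (48.8%). Over all genes tested 17.4% were called, 11.5% lower and 5.95% higher. With library totals in place of TMM, 13 of the 41 were lower and 7 higher, against 7.47% and 11.5% of all genes, so the split leans on the scaling.

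The presynaptic genes are counted more deeply than most, with a median mean count of 717.5 against 96 for all genes tested, and depth makes calls easier. Among all genes that averaged 100 or more footprints, 33.9% were called, 19.4% lower and 14.5% higher. Of the 40 presynaptic genes that passed that minimum, 20 were called, 15 lower and 5 higher. The minimum sets a floor and does not match the genes for depth. By size alone, 9 of the 41 genes (21.95%) differed by at least 1.5-fold, 7 lower and 2 higher in replicate 2. Over all genes 19.1% did, 8.43% lower and 10.7% higher. The share past 1.5-fold either way was thus close to the background, but the lean by direction was opposite. That background includes genes counted less deeply, so the shares are not matched for depth. All 9 were also called, against 8.11% of all genes that were both called and past 1.5-fold. With edgeR's exact test, whose common dispersion was estimated with both animals as 1 group, 0 of the 41 genes were called (lowest adjusted p = 0.986), and 5 had an unadjusted p under 0.05. Over all 16427 genes that test called 0.067%, and 4.38% had an unadjusted p under 0.05.

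Cplx2 had the lowest ratio, at 258 CPM in replicate 1 and 144 CPM in replicate 2, a log2 ratio of -0.97 (exact binomial adjusted p = 1.36e-26). Cplx1 followed the same way at 214 and 141 CPM, with a log2 ratio of -0.72. Syt5 had 204 and 127 CPM and a log2 ratio of -0.81. Syngr3 (238 and 159 CPM), Vamp2 (534 and 366 CPM) and Sv2a (501 and 349 CPM) had log2 ratios of -0.70, -0.67 and -0.65. Bsn had 138 and 91.6 CPM, a log2 ratio of -0.71. These 7 genes were lower in replicate 2 by at least 1.5-fold.

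Among the 4 genes called higher in replicate 2, Pclo had 136 CPM in replicate 1 and 225 CPM in replicate 2, a log2 ratio of 0.60 (exact binomial adjusted p = 1.39e-08). Sypl had 31.6 and 52.3 CPM, a log2 ratio of 0.59 (exact binomial adjusted p = 0.0235). Synpr had 77.1 and 113 CPM and Synj1 had 212 and 270 CPM, with log2 ratios of 0.42 and 0.23. Bsn and Pclo, partner scaffolds of the active zone, thus differed in opposite directions between the libraries, also with library totals.

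By role, all 3 regulators (Sncb, Cplx1, Cplx2) were lower in replicate 2, with a median log2 ratio of -0.72. In the synaptophysin and synaptogyrin family all 5 genes were called, 3 lower and 2 higher. Among synaptotagmins, Syt1, Syt4 and Syt5 were lower and Syt2, Syt7 and Syt11 were not called. Of the 6 endocytosis genes only Synj1 was called, and the other log2 ratios lay between -0.15 and -0.01. Nsf was called lower at a log2 ratio of -0.18, but with library totals in place of TMM it was not called, at -0.06 (exact binomial adjusted p = 0.559). Syn2 and Syt1 lost their calls in the same way.

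Several measures moved with these differences, and their part in them was not tested. Over the 41 genes the median log2 ratio was -0.10, against 0.01 over all genes tested. Of the 41, 29 were below 0, against 49.5% of all genes tested. With library totals the median was 0.02, against 0.13, and 20 of the 41 were below 0, against 38.1%. Of the 10 neuronal markers 9 were below 0, with a median of -0.48, 6 called lower and 1 higher. The median was also below 0 for markers of microglia (-0.47) and red cells (-0.69), and was -0.25 for astrocytes and 0.04 for the oligodendrocyte lineage. The log2 ratio fell as density rose, with rho -0.584 over the 41 genes and -0.255 over all coding genes. A trend of the ratio was also removed, taken with footprints per whole length of a gene's highest transcript and not per coding length. With that trend removed, 11 of the 41 genes were lower and 8 higher, and 15 of the 20 calls were kept. Over all genes that setting called 9.25% lower and 7.21% higher.

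**Figure D5:**
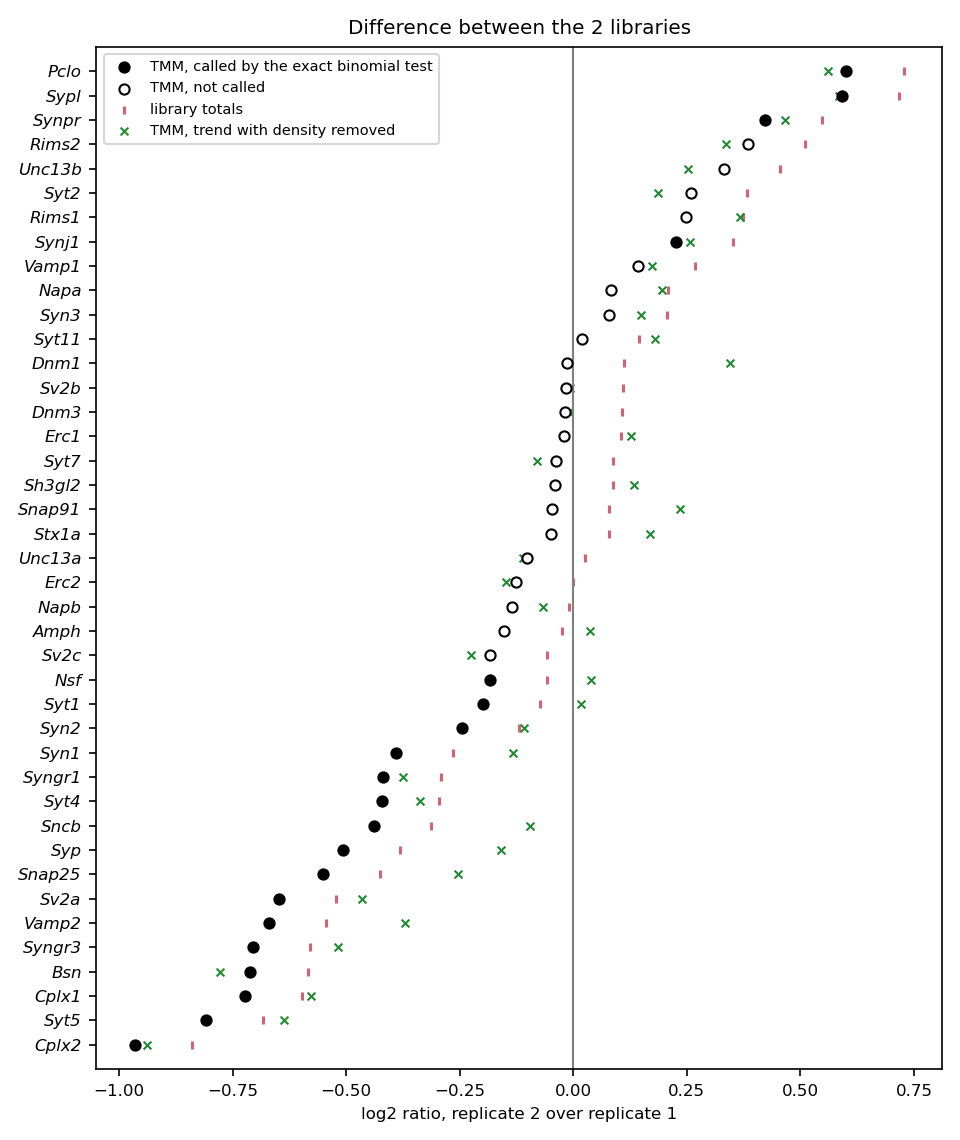
The log2 ratio of replicate 2 over replicate 1 for the 41 genes, with TMM scaling (filled circles called by the exact binomial test, open circles not called), with library totals (red bars) and with the trend with density removed (green crosses). Cplx2 is lowest at -0.97 and Pclo highest at 0.60. Library totals place every gene slightly further right. The removed trend is with footprints per whole length of a gene's highest transcript, not per coding length.

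Other genes of presynaptic release and vesicle recycling were taken from a list of 67, of which 66 were in the table and 65 averaged 10 or more footprints. Their summed share of the footprints was 1.01% in replicate 1 and 1.02% in replicate 2, and their median density was 63.3 and 68.2. Of the 65, 49 lay above the median density of all coding genes. Rab3a, the GTPase that marks vesicles for docking, was densest at 919 and 892, a range that lies within that of Sncb. Dnajc5, the vesicle chaperone CSP alpha, had 619 and 572. At the other end, Unc13c, the Munc13 of cerebellar granule cells, had 2.42 and 2.66, and Sypl2, a synaptophysin relative of muscle, had 1.35 and 4.78. Cplx4, a complexin of the retina, had 0 footprints in both libraries. A count of 0 still allows a level of 1.61 CPM at the depth of replicate 1, or 0.570 CPM at that of replicate 2.

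Between libraries, the exact binomial test called 18 of these 65 lower in replicate 2 and 7 higher, against 11.5% and 5.95% of all genes. With library totals 11 were lower and 15 higher, against 7.47% and 11.5%, so the lean turned with the scaling. Their median log2 ratio was 0.02, or 0.15 with library totals. Snap23, a widely expressed relative of Snap25, had the largest called ratio, 1.03, from 15 and 97 footprints (exact binomial adjusted p = 0.0357). Cadps2, a priming factor of dense-core vesicles, was higher at 0.85, and Syt13 was lower at -0.81.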

How the data were processed

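The authors deposited 1 table of whole-number footprint counts for 109463 transcripts, with no normalization and 1 column per replicate. Trimmomatic 0.36, Bowtie2 2.2.6, SAMtools and build GRCm38.p4 are named in the submitters' processing notes. The annotation release, the use of strand and the counting of fragments that match several transcripts are not given in the sources used here. Annotated transcript and coding lengths come from the deposited table. In 73 pairs of coding transcripts with identical lengths within a gene, the mean squared difference over the sum of paired counts was 0.997 (72 comparisons with a sum of at least 10), the value for independent counts being 1. Counts were therefore summed per gene over its transcripts.

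Density used the coding length of the protein coding transcript with the most footprints. Intervals are exact Poisson or Clopper-Pearson at 95%, and the limit for a count of 0 is 3 counts. Replicates were compared by an exact binomial test at the TMM effective library sizes of edgeR 4.0.16 with Benjamini-Hochberg adjustment, called under 0.05, over genes that averaged 10 or more footprints, tested first on simulated data. Log2 ratios used a prior of 0.5 CPM. With 1 group, a quasi-likelihood test has no contrast. DESeq2 1.42.0 gave alternative size factors. Alternatives were library totals, other filters, other lengths, protein coding transcripts alone, the highest transcript alone, and a lowess trend removed (fraction 0.3, statsmodels 0.14.6). With protein coding transcripts alone and the highest transcript alone, densities and shares used the total of the footprints kept. The highest transcript is the one with the most footprints, whatever its class, and its count was divided by the main coding length. The trend was taken with footprints per length of that whole transcript, not with density per coding length.

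The members and lists were chosen with earlier results of these data known. Named genes were, by rule, the 6 densest and 4 least dense members, the extremes of each role, called members past 1.5-fold, all fixed pairs and the extremes of the wider list. All 41 symbols matched RefSeq (GRCm38.p6, used for names alone). Matched RNA abundance, reading frame and position along the transcript were not analysed here, so densities are not translational efficiencies. Genes that share sequence or overlap others remain uncertain. Some genes of the wider list are not reported here.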

Additional observations from a re-analysis of the deposited data

How the results depend on the processing

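The number of genes above the median density of all coding genes was 37 and ranged from 32 (of 40 genes averaging 100 or more footprints) to 37 over the filters and lengths tried. The members' share of footprints, 1.05%, ranged from 1.02% to 1.09% with 1 replicate left out. With the highest transcript alone it was 0.863% of the footprints kept there. The members' median density, 165, became 54.2 per whole transcript, and ranged from 149 to 175 with 1 replicate left out. It was 140 with protein coding transcripts alone and 111 with the highest transcript alone. Both of these settings use the total of the footprints kept, so their densities are not on the scale of the main setting. Syt4, which has 1 transcript, went from 165 to 219 and 322 in them. The highest transcript alone takes a smaller part of genes with many transcripts by construction. Under it Cplx2, which has 1 transcript, was densest, and per whole transcript Syp was. The median share outside the coding class was 14.05% on the mean of the replicates, and 14.2% to 14.6% with 1 replicate left out.

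The 20 genes called between replicates became 0 with edgeR's exact test (0 lower, 0 higher) and 34 when the libraries were scaled on the summed neuronal markers, an alternative chosen after seeing the data (6 lower, 28 higher). That scaling moves the log2 ratios of all genes up by about 0.48 and called 42.6% of all genes. The 4 higher calls became 7 with library totals and 8 with the trend with footprints per transcript length removed. They became 2 with protein coding transcripts alone and 1 with the highest transcript alone. Over all genes, calls in either direction also fell in these settings, from 2861 to 2368 and 1444. DESeq2 size factors kept all 20 calls, library totals 17 and protein coding transcripts alone 17. With library totals, Dnm1 changed sign to 0.11 and was called. With the trend removed, Dnm1 (0.34) and Snap91 (0.24) changed sign and were called higher, and Syt1 (0.016) and Nsf (0.039) changed sign and lost their calls. The cause was not tested. No paired analysis was possible because both samples belong to 1 group. Depth limits replicate 1 most, where Unc13b rests on 37 footprints.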
